A study of Mus musculus with 20 samples.

Results

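Type I interferon-stimulated genes were followed as a module of 33 genes in an RNA sequencing study of the Apc Min mouse intestine. The members were taken by gene symbol, and all 33 were found among the 24795 genes of the deposited table. Of these, 30 reached the level needed for a test, and Oas2, Mx2 and Ifi44 did not. The data comprised 20 libraries: 6 from Apc Min mice under DM-aKG treatment, 7 from Apc Min mice under control treatment and 7 from WT mice with no treatment. Apc Min is a germline nonsense allele of Apc, a tumour suppressor that holds beta-catenin in check, and its carriers form many adenomas of the intestine. Dimethyl alpha-ketoglutarate (DM-aKG) is an ester that enters cells and releases alpha-ketoglutarate. The labels give no strain, age, sex, dose, duration or intestinal segment. The titles of all 3 groups say tissue, whereas their other fields name intestinal organoids of primary cells in vitro, an organoid medium and low glutamine. They do not say whether each library came from a separate animal, so a p-value here sets a difference against the spread of libraries, which may be technical.

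Type I interferons (interferon alpha and beta) bind the receptor pair Ifnar1 and Ifnar2, and the kinases Jak1 and Tyk2 on its tails then phosphorylate Stat2. Stat2 and Irf9 are parts of ISGF3, a transcription factor that binds the interferon-stimulated response element (ISRE) in the promoters of antiviral genes. Type III interferons (lambda) reach the same factor through Ifnlr1 and Il10rb, a receptor used by intestinal epithelium, and interferon gamma signals through Ifngr1 and Ifngr2 to a different element, GAS. The 33 genes hold the transducers themselves, sensors of viral nucleic acid, effectors that block viral replication, and a ubiquitin-like system built on Isg15.

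Of the 33 genes, 24 matched a 250-base RefSeq window before the gene start (build GRCm38.p6), and Oas2, Mx1, Mx2, Usp18, Dhx58, Rtp4, Zbp1, Parp9 and Parp14 did not. The core ISRE letters GAAANNGAAA, read on either strand with overlapping matches allowed, stood in the windows of 9 of the 24 genes (37.5%), against 3.46% of all 27025 genes with a window. The GAS letters TTCNNNGAA stood in 4 of the 24 (16.7%: Bst2, Eif2ak2, Ifit2 and Oas1a), against 8.13% of all genes. The matches of these 9 genes are printed because the ISRE is the element through which ISGF3 acts, and capitals mark the matched letters, which appear in reverse complement in Trim30a, Stat2, Rsad2, Ifit3 and Ifit1. Each is shown 5′ to 3′ on the strand of its gene, and a match describes letters in a window, not a bound site.
Isg15, chr4:156200860-156200911, minus strand: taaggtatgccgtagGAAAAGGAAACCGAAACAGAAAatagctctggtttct
Oas3, chr5:120777710-120777749, minus strand: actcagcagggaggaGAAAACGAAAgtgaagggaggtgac
Oas1a, chr5:120907526-120907560, minus strand: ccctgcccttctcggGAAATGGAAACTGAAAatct
Trim30a, chr7:104465205-104465244, minus strand: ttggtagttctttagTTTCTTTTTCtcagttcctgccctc
Bst2, chr8:71537572-71537617, minus strand: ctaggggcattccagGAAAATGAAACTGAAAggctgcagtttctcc
Stat2, chr10:128270261-128270300, plus strand: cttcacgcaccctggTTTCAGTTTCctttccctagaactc
Rsad2, chr12:26456548-26456587, minus strand: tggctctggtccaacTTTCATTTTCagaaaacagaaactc
Ifit3, chr19:34583358-34583431, plus strand: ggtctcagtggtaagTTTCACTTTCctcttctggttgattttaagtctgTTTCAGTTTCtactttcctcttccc
Ifit1, chr19:34640770-34640828, plus strand: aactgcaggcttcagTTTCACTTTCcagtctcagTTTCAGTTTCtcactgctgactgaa
Isg15 held 3 overlapping matches, the first at position -78 from the gene start. Ifit1 and Ifit3 each held 2 separate matches, the first at -104 and at -156. All 9 of these genes fell in control Apc Min against WT, and so did members whose window held no match, such as Ddx58, Ifih1 and Irf9. In that comparison 27 of the 30 tested members fell, where 15.7% of all tested genes fell.

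The values are RPKM, reads normalized to gene length and library size, and a log2 change is the difference between group means of log2(RPKM + 1), a scale that shrinks the change of low genes. Depth read from the step between low values was 21.2 to 29.3 M reads per library. Calls are at a limma adjusted p under 0.05 over the 12433 genes tested. The labelled tissue was checked against marker genes. The 7 epithelial markers (Epcam and Krt8 among them) summed to 2409 to 3376 RPKM in DM-aKG Apc Min, 3366 to 4819 in control Apc Min and 4238 to 5685 in WT libraries. Smooth muscle, fibroblast, endothelial and red blood cell markers were present in all 20 libraries, with none of their genes at 0 in any library. These are cell types that epithelial organoids do not contain. These levels go against organoids of pure epithelium as the source.

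The module was lower in Apc Min intestine than in WT, with and without DM-aKG. In control Apc Min against WT, 27 of the 30 tested genes fell and none rose, where 15.7% of all tested genes fell and 43.2% rose. Their median log2 change was -1.16, against 0.20 for all genes. Set against WT, DM-aKG Apc Min showed 27 falls and no rise, where 17.3% of all tested genes fell and 21.9% rose, with medians of -1.19 for the 30 genes and 0.05 for all genes. The groups did not overlap for 19 genes in control Apc Min against WT (5.73% of all tested genes lay wholly below WT) and for 23 genes in DM-aKG Apc Min against WT (7.79%). Both comparisons use the same 7 WT libraries. The WT mice had no treatment, so genotype and treatment cannot be told apart in either comparison. Of the tested genes, 8 (Oas3, Mx1, Rsad2, Usp18, Dhx58, Xaf1, Herc6 and Trim30a) would not have reached the test level on their Apc Min libraries alone. Among the 22 others, 19 fell in each comparison, and in a fit with no filter 30 of all 33 fell in each, where 12.1% of 20523 genes fell in control Apc Min against WT and 11.4% in DM-aKG Apc Min against WT.

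**Figure D1:**
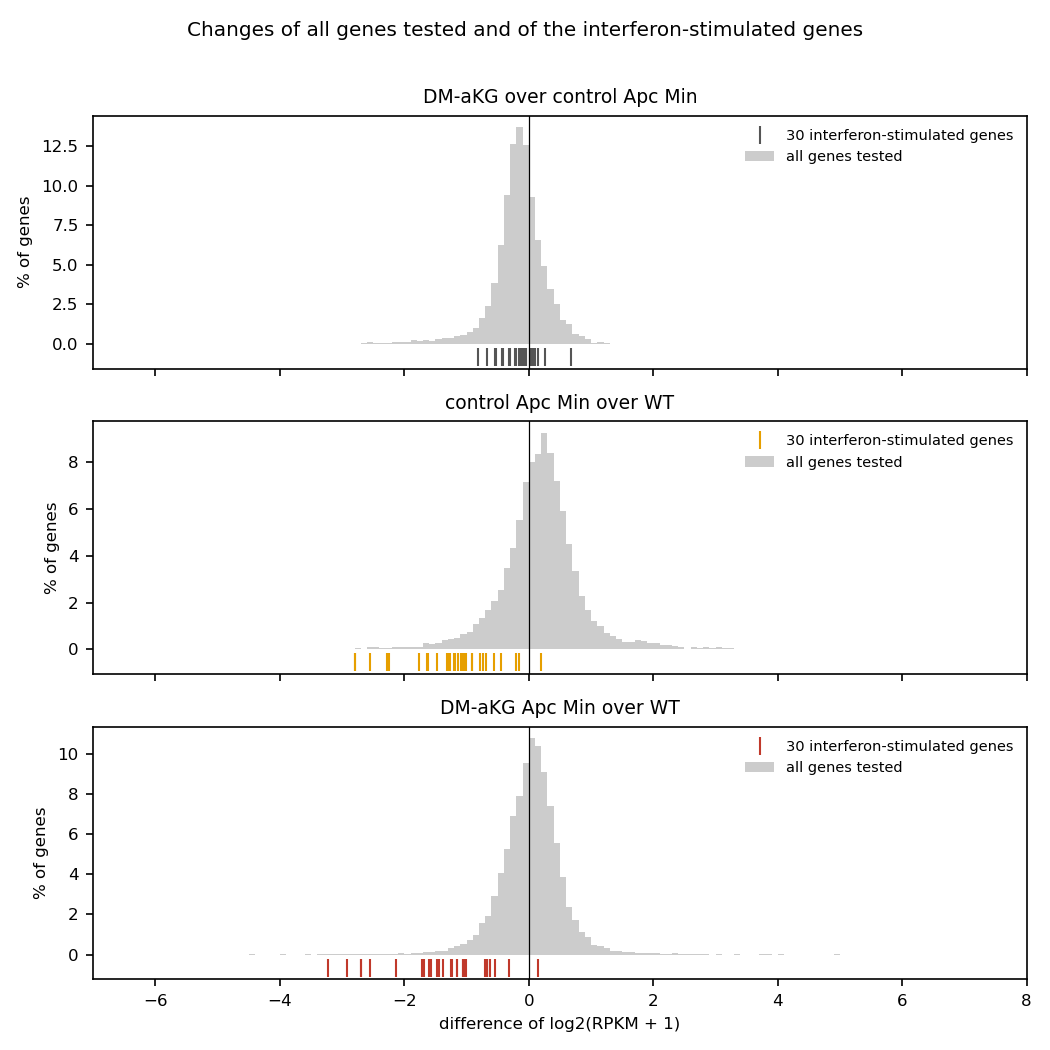
Distribution of log2 changes over the 12433 genes tested (grey bars, % of genes per bin) with each of the 30 tested interferon-stimulated genes as a tick, in the 3 comparisons. In both comparisons with WT the ticks lie mostly left of the bulk of the grey distribution, and in DM-aKG over control they lie within it.

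Between the Apc Min groups few of the genes were called. With DM-aKG against control, 1 of the 30 genes rose (Cmpk2), 2 fell (Oasl1 and Eif2ak2) and 27 were not called, where 5.91% of all tested genes rose and 27.6% fell. The median log2 change was -0.07 over the 30 genes and -0.14 over all genes, and 5 of the 30 had an unadjusted p under 0.05. With array weights 8 of the 30 fell, where 34.4% of all tested genes fell. For none of the 30 did the DM-aKG and control libraries separate without overlap, whereas 0.732% of all tested genes lay wholly above and 8.19% wholly below.

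The balance of all genes depended on scaling. With median-of-ratios scaling the calls in control Apc Min against WT were 3258 higher and 3412 lower, in place of 5368 and 1948, and the median of all genes was -0.01 in place of 0.20. In DM-aKG against control they were 1367 higher and 1815 lower, in place of 735 and 3432, with a median of 0.00 in place of -0.14. In DM-aKG Apc Min against WT they were 2251 higher and 2787 lower, in place of 2722 and 2151. With this scaling, as with quantile normalization, 29 of the 30 interferon-stimulated genes fell in control Apc Min against WT and 28 in DM-aKG Apc Min against WT.

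**Figure D2:**
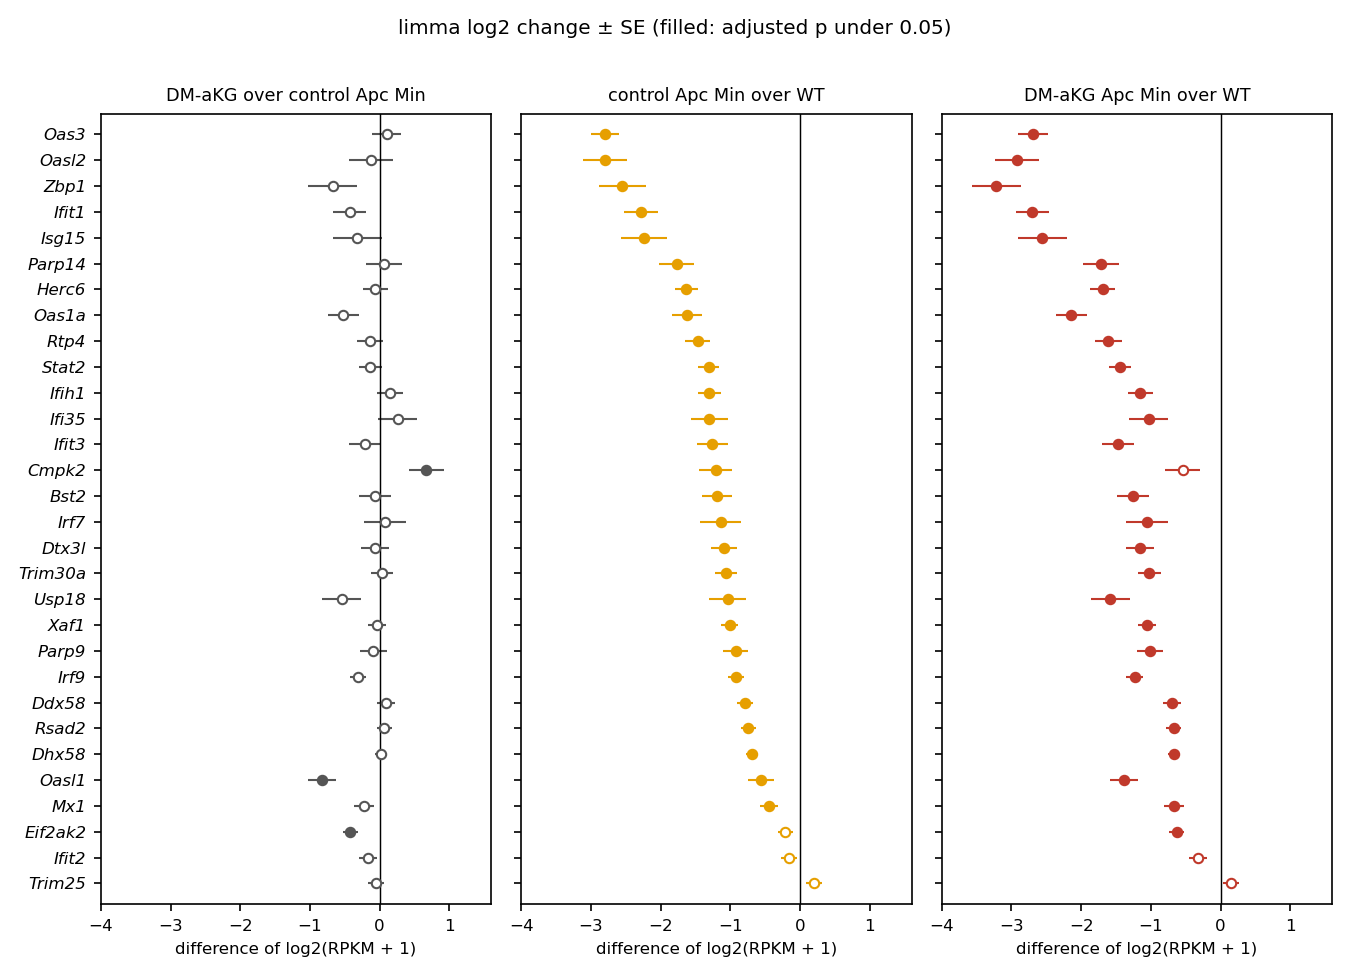
Log2 change of each tested gene with its SE, in DM-aKG over control Apc Min, control Apc Min over WT and DM-aKG Apc Min over WT. Filled points are the calls at a limma adjusted p under 0.05, namely 3, 27 and 27 genes.

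Markers of T and NK cells and of leukocytes in general were, like the module, mostly lower in Apc Min than in WT. All 9 markers of T and NK cells in the table fell in control Apc Min against WT, and 8 of 9 fell in DM-aKG Apc Min against WT (all but Klrd1, which fell there with the other scalings). Their summed level was 6.32 to 22.5 RPKM (median 15.1) in DM-aKG Apc Min, 2.77 to 38.2 (median 12.9) in control Apc Min and 57.8 to 172 (median 148) in WT libraries. The sums differed from WT in both Apc Min groups (exact permutation test, 2-sided, adjusted p = 0.00262 for each over 36 marker tests) and did not differ between DM-aKG and control (adjusted p = 0.998). All 8 pan-leukocyte markers, Ptprc among them, also fell in both comparisons with WT, with sums of 24.0 to 58.2, 28.6 to 84.2 and 66.8 to 115 RPKM in DM-aKG Apc Min, control Apc Min and WT. No T, NK or leukocyte marker changed with DM-aKG against control in limma, and none of these 17 genes was at 0 in any library. Their part in the lower interferon-stimulated genes was not tested, and in bulk RNA fewer cells of a type and less RNA per cell cannot be told apart.

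Other cell types went in both directions. B and plasma cell markers summed to 66.4 to 216 RPKM in DM-aKG Apc Min, 42.1 to 124 in control Apc Min and 249 to 722 in WT, with 5 of 5 tested markers lower in both Apc Min groups than in WT and none called with DM-aKG against control (Jchain rose with median-of-ratios scaling). Of 10 macrophage and monocyte markers, 7 fell in control Apc Min and 5 in DM-aKG Apc Min against WT (sums 59.2 to 106, 70.5 to 111 and 93.0 to 178 RPKM in DM-aKG Apc Min, control Apc Min and WT), and Cd68 fell with DM-aKG against control. With median-of-ratios scaling 8 of these 10 fell in DM-aKG Apc Min and 9 in control Apc Min against WT, and with quantile normalization 7 and 8. The 6 dendritic cell markers summed to 1.28 to 5.25 RPKM in DM-aKG Apc Min, 1.01 to 3.65 in control Apc Min and 3.65 to 7.51 in WT, and Itgax, the only one high enough to test, fell in both Apc Min groups against WT. Neutrophil markers were higher in Apc Min, with sums of 1.43 to 39.8, 6.46 to 55.9 and 0.181 to 1.02 RPKM in DM-aKG Apc Min, control Apc Min and WT. S100a8 and S100a9 rose in both groups against WT, Ly6g rose in control Apc Min, and Ly6g fell with DM-aKG against control, a call lost with the other scalings. Markers at 0 in at least 1 library were Ms4a1 of B cells, Clec9a and Cd209a of dendritic cells, and S100a8, S100a9, Ly6g and Cxcr2 of neutrophils.

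Markers of plasmacytoid dendritic cells, the classic makers of interferon alpha, were mixed. The defining gene Siglech and Cox6a2 were at 0 in at least 1 library, and Siglech, Cox6a2 and Pacsin1 were too low to test. The sum of the list therefore rests mainly on Ccr9, Klk1, Ly6d and Runx2. A difference in this sum is not by itself a difference in plasmacytoid dendritic cells. The 7 markers together summed to 12.8 to 49.0 RPKM in DM-aKG Apc Min, 98.8 to 229 in control Apc Min and 43.4 to 90.1 in WT, and differed in DM-aKG Apc Min against control (exact permutation test, 2-sided, adjusted p = 0.00262), in control Apc Min against WT (adjusted p = 0.00262) and in DM-aKG Apc Min against WT (adjusted p = 0.00442). Of the 4 tested, Klk1, Ly6d and Runx2 fell with DM-aKG against control. With median-of-ratios scaling 3 of the 4 were tested, and only Ly6d was also lower. With quantile normalization Ly6d and Runx2 were lower and Ccr9 was higher. Against WT, Ly6d and Runx2 rose in control Apc Min, the call of Runx2 being lost with both other scalings (with quantile normalization it fell in DM-aKG Apc Min against WT), and Ccr9 and Klk1 fell in both Apc Min groups.

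Markers of the tissue's structural cells also differed between the groups. With DM-aKG against control all 7 smooth muscle markers rose (6 with quantile normalization), 5 of 7 fibroblast markers fell, and 5 of 7 epithelial markers fell (1 of 7, Krt18, with median-of-ratios scaling) while Vil1 rose. Control Apc Min against WT showed the smooth muscle markers lower (7 of 7), 6 of 7 fibroblast markers higher, and Krt18 higher with Vil1, Krt8 and Cdx2 lower. With quantile normalization the call of Krt8 there was lost, its sign changed, and Cdh1 was higher, and with median-of-ratios scaling Epcam and Krt19 were also lower. In DM-aKG Apc Min against WT no smooth muscle marker was called, Dcn and Pdgfra were higher among fibroblast markers, and Epcam, Vil1, Krt8 and Krt19 were lower, of which Epcam and Krt19 were not called with quantile normalization, while Cdh1 and Cdx2 were also lower and Col3a1 was lower with median-of-ratios scaling. Of 6 endothelial markers, 6 rose in DM-aKG Apc Min (all but Emcn with the other scalings) and 2 in control Apc Min against WT, and Cldn5 rose and Cdh5 fell with DM-aKG against control. All 5 red blood cell markers rose in both comparisons with WT (in control Apc Min 3 of 5 with quantile normalization, Hbb-bt and Alas2 being lost), and none was called between the Apc Min groups.

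Transcripts of the interferons themselves were nearly all undetected. A value of 0 means not detected at a depth of 21.2 to 29.3 M reads per library, not absence. Of 21 interferon genes in the table, 17 were listed at 0 RPKM in all 20 libraries, among them Ifnb1, the lambda genes Ifnl2 and Ifnl3 and every interferon alpha gene in the table. Ifne, Ifnk and Ifnz stayed at or under 0.0706 RPKM, and Ifng, made by T and NK cells, reached 0.741 RPKM in its highest library. None reached the level needed for a test.

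The receptors were present in all groups and none fell against WT. Ifnar1 lay at 7.00 to 8.65 RPKM (median 7.43) in DM-aKG Apc Min, 7.59 to 12.1 (median 9.67) in control Apc Min and 5.25 to 7.27 (median 6.75) in WT libraries. Every control Apc Min library was above every WT library, and Ifnar1 rose there by a log2 change of 0.51 (SE 0.10, limma adjusted p = 0.000191). With DM-aKG against control it fell by 0.30 (SE 0.10, limma adjusted p = 0.0284). Ifnar2 lay at 3.58 to 4.83 RPKM (median 4.17) in DM-aKG Apc Min, 4.96 to 7.19 (median 5.61) in control Apc Min and 3.27 to 4.40 (median 3.72) in WT libraries. The control Apc Min libraries were above all others, with a log2 change of -0.37 for DM-aKG against control (SE 0.08, limma adjusted p = 0.00226) and of 0.47 for control Apc Min against WT (SE 0.08, limma adjusted p = 6.79e-05). For DM-aKG Apc Min against WT, neither Ifnar1 nor Ifnar2 was called (limma adjusted p = 0.107 and 0.368). The calls of both with DM-aKG against control were lost with median-of-ratios scaling and with quantile normalization, and with quantile normalization so was the rise of Ifnar2 in control Apc Min against WT. Of the other 4 receptor genes tested, Ifngr1 rose in both Apc Min groups against WT, as did Ifnlr1, whose calls were lost with the same scalings. With quantile normalization Ifnlr1 also changed sign in control Apc Min against WT. Il10rb and Ifngr2 were not called in any comparison, though Ifngr2 rose in control Apc Min against WT with quantile normalization.

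Stat2, Irf9 and Irf7, the transcription factors among the 33, were lower in Apc Min than in WT. Stat2, the part of ISGF3 that activates transcription, lay at 2.89 to 6.28 RPKM (median 3.55) in DM-aKG Apc Min, 2.70 to 6.43 (median 4.37) in control Apc Min and 9.58 to 15.2 (median 12.0) in WT. All WT libraries were above all 13 Apc Min libraries, and the log2 change against WT was -1.31 in control Apc Min (SE 0.15, limma adjusted p = 5.79e-07) and -1.44 in DM-aKG Apc Min (SE 0.16, limma adjusted p = 2.34e-06). Irf9, its DNA-binding part, lay at 2.65 to 5.38 RPKM (median 4.17) in DM-aKG Apc Min, 3.90 to 6.47 (median 5.35) in control Apc Min and 8.76 to 12.0 (median 11.3) in WT. WT was again apart from both groups, with log2 changes of -0.92 (SE 0.12, limma adjusted p = 2.25e-06) in control Apc Min and -1.23 (SE 0.12, limma adjusted p = 8.52e-07) in DM-aKG Apc Min. Between DM-aKG and control, Irf9 had a log2 difference of -0.31 (SE 0.12, limma adjusted p = 0.0597), and Stat2 one of -0.13 (SE 0.16, limma adjusted p = 0.553). Irf9 was called lower there with array weights, with the replicate block, and without control replicate 3 or 5 or DM-aKG replicate 2. Over all alternatives its limma adjusted p ran from 0.00714 to 0.506.

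Irf7, the factor that amplifies interferon alpha transcription, lay at 11.9 to 28.5 RPKM (median 23.5) in DM-aKG Apc Min, 6.21 to 32.4 (median 24.0) in control Apc Min and 30.0 to 53.8 (median 41.5) in WT. The highest control libraries were above the lowest WT library, while all DM-aKG libraries were below WT. Irf7 fell against WT by 1.14 in control Apc Min (SE 0.29, limma adjusted p = 0.00251) and by 1.05 in DM-aKG Apc Min (SE 0.30, limma adjusted p = 0.0105), and its difference between DM-aKG and control was 0.08 (SE 0.30, limma adjusted p = 0.856).

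Of the 13 JAK-STAT genes tested as a pathway list, Jak2, Socs1 and Ptpn6 fell in control Apc Min against WT, and Stat3 and Socs2 rose, the rises being lost with the other scalings, with which Tyk2 also fell. DM-aKG Apc Min against WT gave Tyk2, Socs1 and Ptpn6 lower and Socs2 higher. Socs1, a feedback inhibitor that interferon itself induces, had a median of 0.570 RPKM in DM-aKG Apc Min, 0.910 in control Apc Min and 3.70 in WT. Its log2 change against WT was -1.33 in control (limma adjusted p = 5.13e-05) and -1.61 in DM-aKG Apc Min (limma adjusted p = 4.85e-05). Socs3, a brake on Stat3, was the only gene of this list called with DM-aKG against control, with a log2 change of -0.91 (SE 0.34, limma adjusted p = 0.0429). It ranged from 4.91 to 19.9 RPKM in DM-aKG and from 9.56 to 48.1 RPKM in control Apc Min libraries, which overlapped, and the call was lost with the other scalings, with which Jak2 rose.

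Zbp1 and the 3 RIG-I-like helicases, sensors of viral nucleic acid, fell against WT. Zbp1, which recognises Z-form nucleic acid and can trigger cell death, lay at 0.682 to 2.14 RPKM (median 0.962) in DM-aKG Apc Min, 1.05 to 5.33 (median 2.21) in control Apc Min and 6.15 to 37.9 (median 22.1) in WT. All WT libraries were above all Apc Min libraries, with log2 changes of -2.55 in control Apc Min (SE 0.34, limma adjusted p = 3.36e-06) and -3.22 in DM-aKG Apc Min (SE 0.35, limma adjusted p = 2.34e-06). Of the 30 genes Zbp1 had the most negative log2 change in DM-aKG Apc Min against WT. Between DM-aKG and control it was not called (log2 -0.67, SE 0.35, limma adjusted p = 0.149).

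The 3 RIG-I-like helicases fell as well. Ifih1 (MDA5), a sensor of long double-stranded RNA, had a median of 8.03 RPKM in DM-aKG Apc Min, 7.44 in control Apc Min and 18.4 in WT. Ddx58 (RIG-I) had medians of 6.43 RPKM in DM-aKG Apc Min, 6.65 in control Apc Min and 11.5 in WT. Dhx58 (LGP2), which modulates both, had medians of 0.814 RPKM in DM-aKG Apc Min, 0.836 in control Apc Min and 1.84 in WT. All 3 fell against WT in both Apc Min groups with no overlap of libraries, by 0.69 to 1.30 in control and by 0.67 to 1.15 in DM-aKG Apc Min. None of the 3 was called between DM-aKG and control.

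Of 17 other sensors, adaptors and interferon-regulatory factors tested, 7 fell in control Apc Min against WT (Mavs, the adaptor of RIG-I and MDA5, Tlr3, Tbk1, Ikbke, Irf1, Irf8 and Nlrc5) and 4 rose (Tmem173, Traf3, Aim2 and Ddx41). With median-of-ratios scaling or quantile normalization 11 fell there (Ticam1, Irf2, Irf3 and Irf5 added), Ddx41 changed sign, and with quantile normalization the rise of Traf3 was lost. For DM-aKG Apc Min against WT, 8 fell and Aim2 rose, where 17.3% of all tested genes fell and 21.9% rose. In control Apc Min against WT these all-gene shares were 15.7% and 43.2%. Nlrc5, which activates MHC class I genes, had a median of 0.437 RPKM in DM-aKG Apc Min, 0.301 in control Apc Min and 2.63 in WT, and Irf8 had 9.74 RPKM in DM-aKG Apc Min, 8.52 in control Apc Min and 32.6 in WT. Tmem173 (STING), the adaptor of cytosolic DNA sensing, lay at 1.72 to 7.55 RPKM in DM-aKG Apc Min, 9.10 to 17.0 in control Apc Min and 2.11 to 3.55 in WT. Its control libraries were above all others, with log2 changes of -1.91 for DM-aKG against control (SE 0.21, limma adjusted p = 9.49e-07) and 1.96 for control Apc Min against WT (SE 0.20, limma adjusted p = 1.16e-07). With DM-aKG against control Aim2 and Ddx41 also fell and no gene of this list rose (Irf8 rose with quantile normalization). Of all tested genes 27.6% fell and 5.91% rose in this comparison. The calls of Ddx41, and that of Aim2 in DM-aKG Apc Min against WT, were lost with both scalings.

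**Figure D3:**
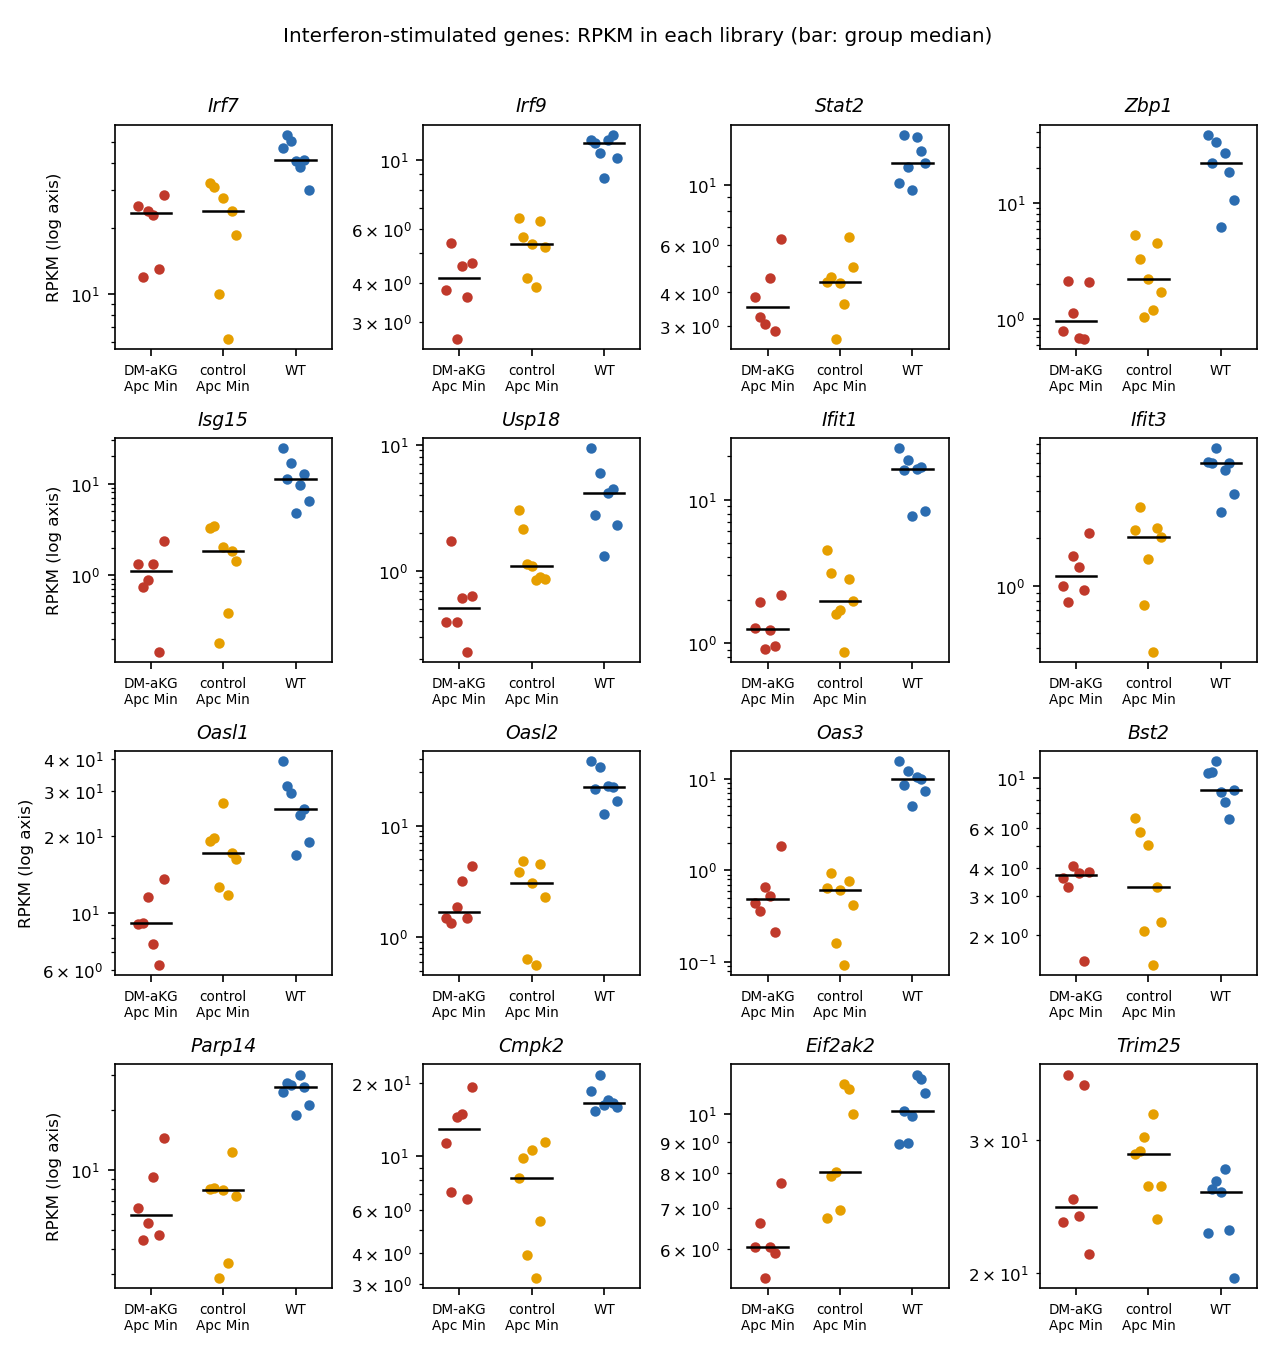
RPKM of 16 interferon-stimulated genes in every library on a log axis, in DM-aKG Apc Min (n = 6), control Apc Min (n = 7) and WT (n = 7), with the group median as a bar. Ifit1, Isg15, Oasl2, Oas3, Zbp1, Stat2, Irf9 and Parp14 have all WT libraries above all Apc Min libraries, whereas Trim25 overlaps in all groups.

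The 2-5A synthetases and their relatives lie on chromosome 5 (mm10), in separate clusters. Oasl2 and Oasl1, 11.0 kb apart, lie between positions 114896936 and 114937915, and Oas2, Oas3 and Oas1a between 120730333 and 120907521. Oas3, which makes the messenger that activates RNase L, lay at 0.211 to 1.83 RPKM (median 0.486) in DM-aKG Apc Min, 0.0932 to 0.943 (median 0.609) in control Apc Min and 5.05 to 15.4 (median 9.86) in WT. The lowest WT library was above the highest Apc Min library, and Oas3 fell by 2.80 in control Apc Min (SE 0.20, limma adjusted p = 1.18e-09) and by 2.69 in DM-aKG Apc Min (SE 0.21, limma adjusted p = 5.38e-08). It is one of the 8 genes that would not have passed the filter on Apc Min libraries alone. Oasl2, a synthetase relative with ubiquitin-like repeats, lay at 1.33 to 4.37 RPKM (median 1.68) in DM-aKG Apc Min, 0.561 to 4.83 (median 3.06) in control Apc Min and 12.8 to 37.7 (median 22.0) in WT. WT was apart from both groups, with log2 changes of -2.80 (SE 0.31, limma adjusted p = 2.74e-07) in control and -2.92 (SE 0.32, limma adjusted p = 2.33e-06) in DM-aKG Apc Min. Between the Apc Min groups Oasl2 differed by -0.12 (SE 0.32, limma adjusted p = 0.798), against an all-gene median of -0.14.

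Oas1a showed the same order of groups, with medians of 2.41, 4.02 and 12.4 RPKM in DM-aKG Apc Min, control Apc Min and WT, and fell against WT in both without overlap (log2 -1.62 in control and -2.14 in DM-aKG Apc Min). Its near-identical neighbour Oas1g had medians of 0.905, 1.41 and 5.36 RPKM, and reads may be split between the pair. Oas2 reached 0.741 RPKM at most, in a WT library, and was not tested with the filter. In the fit with no filter its log2 changes were -0.38 in control (limma adjusted p = 0.000548) and -0.41 in DM-aKG Apc Min (limma adjusted p = 0.00135).

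Oasl1, which inhibits Irf7 translation in mouse cells, was 1 of the 2 genes that fell with DM-aKG against control. It lay at 6.25 to 13.6 RPKM (median 9.09) in DM-aKG Apc Min, 11.7 to 26.9 (median 17.1) in control Apc Min and 16.8 to 39.2 (median 25.5) in WT. The 3 groups formed steps whose neighbours overlap, and only DM-aKG Apc Min and WT were apart. Oasl1 fell with DM-aKG against control by 0.82 (SE 0.20, limma adjusted p = 0.00392), in control Apc Min against WT by 0.56 (SE 0.19, limma adjusted p = 0.0178) and in DM-aKG Apc Min against WT by 1.38 (SE 0.20, limma adjusted p = 4.84e-05). With replicates 5 to 7 only, the change with DM-aKG was -0.62 (limma adjusted p = 0.16).

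The 3 Ifit genes lie between positions 34550694 and 34650009 of chromosome 19 (mm10) and encode proteins that bind foreign RNA ends. Ifit1 lay at 0.915 to 2.17 RPKM (median 1.25) in DM-aKG Apc Min, 0.869 to 4.44 (median 1.98) in control Apc Min and 7.71 to 22.8 (median 16.3) in WT. Every WT library was above every Apc Min library, with log2 changes of -2.28 in control Apc Min (SE 0.24, limma adjusted p = 1.28e-07) and -2.70 in DM-aKG Apc Min (SE 0.24, limma adjusted p = 3.12e-07). Its difference between DM-aKG and control was -0.43 (SE 0.24, limma adjusted p = 0.188). Ifit3 lay at 0.785 to 2.16 RPKM (median 1.16) in DM-aKG Apc Min, 0.380 to 3.15 (median 2.03) in control Apc Min and 2.95 to 7.48 (median 5.99) in WT. The highest control library reached into the WT range, and Ifit3 fell by 1.26 in control (SE 0.22, limma adjusted p = 6.24e-05) and by 1.47 in DM-aKG Apc Min (SE 0.23, limma adjusted p = 7.85e-05). DM-aKG and control differed by -0.21 (SE 0.23, limma adjusted p = 0.495) for Ifit3. Its near-identical copy Ifit3b had medians of 0.412, 0.899 and 1.61 RPKM in DM-aKG Apc Min, control Apc Min and WT, and reads may be split between them. Ifit2 had medians of 1.17, 1.16 and 1.64 RPKM in DM-aKG Apc Min, control Apc Min and WT, and was called in no comparison (against WT, limma adjusted p = 0.0518 in DM-aKG Apc Min and 0.28 in control Apc Min). With median-of-ratios scaling it fell in both comparisons with WT.

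Isg15, the ubiquitin-like protein that is coupled to other proteins during the response, lay at 0.146 to 2.35 RPKM (median 1.11) in DM-aKG Apc Min, 0.184 to 3.43 (median 1.84) in control Apc Min and 4.73 to 24.2 (median 11.3) in WT. All WT libraries were above all Apc Min libraries, with log2 changes of -2.24 in control (SE 0.33, limma adjusted p = 1.21e-05) and -2.56 in DM-aKG Apc Min (SE 0.35, limma adjusted p = 2.4e-05). The Apc Min groups spanned nearly the same range and differed by -0.32 (SE 0.35, limma adjusted p = 0.507).

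Usp18, which removes Isg15 and dampens signalling from the type I receptor, lay at 0.229 to 1.72 RPKM (median 0.505) in DM-aKG Apc Min, 0.849 to 3.04 (median 1.10) in control Apc Min and 1.32 to 9.36 (median 4.14) in WT. The ranges of all 3 groups overlapped, and Usp18 fell by 1.04 in control (SE 0.27, limma adjusted p = 0.00255) and by 1.58 in DM-aKG Apc Min (SE 0.28, limma adjusted p = 0.000282). Between DM-aKG and control its log2 difference was -0.54 (SE 0.28, limma adjusted p = 0.145). Herc6, the main ligase for Isg15 in the mouse, had medians of 0.452, 0.622 and 3.95 RPKM in DM-aKG Apc Min, control Apc Min and WT. It fell without overlap in both groups (log2 -1.63 in control and -1.69 in DM-aKG Apc Min), with 13.7% of its exon bases shared with Gm45193. Trim25, a ligase for RIG-I, lay at 21.2 to 36.6 RPKM (median 24.4) in DM-aKG Apc Min, 23.6 to 32.5 (median 28.7) in control Apc Min and 19.7 to 27.5 (median 25.6) in WT. All groups overlapped and it was called in no comparison: the log2 differences were 0.20 for control Apc Min against WT (SE 0.12, limma adjusted p = 0.152), 0.15 for DM-aKG Apc Min against WT (SE 0.12, limma adjusted p = 0.331) and -0.05 for DM-aKG against control (SE 0.12, limma adjusted p = 0.794). With median-of-ratios scaling the first of these was -0.04.

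Rsad2 (viperin), which makes a chain-terminating nucleotide, and Cmpk2, a mitochondrial nucleotide kinase, lie 12.8 kb apart on chromosome 12. Rsad2 had medians of 0.790, 0.756 and 1.86 RPKM in DM-aKG Apc Min, control Apc Min and WT, and fell against WT in control (log2 -0.74) and DM-aKG Apc Min (log2 -0.67). Cmpk2 lay at 6.68 to 19.3 RPKM (median 12.9) in DM-aKG Apc Min, 3.16 to 11.5 (median 8.17) in control Apc Min and 15.3 to 21.7 (median 16.6) in WT. All control libraries were below WT, while the DM-aKG libraries overlapped both other groups. Cmpk2 rose with DM-aKG against control by 0.67 (SE 0.25, limma adjusted p = 0.048), and over the alternatives tried its limma adjusted p ran from 0.0186 to 0.244. The call was lost without any single WT library, without control replicate 3, 5 or 6 alone, and without replicate 1, 3, 4 or 6 of DM-aKG alone (limma adjusted p = 0.0527 to 0.124). In control Apc Min against WT it fell by 1.21 (SE 0.24, limma adjusted p = 0.000299), and in DM-aKG Apc Min against WT it was not called (log2 -0.54, SE 0.25, limma adjusted p = 0.0943). Rsad2, its neighbour, was not called with DM-aKG against control (log2 0.07, SE 0.11, limma adjusted p = 0.669).

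Eif2ak2 (PKR), a kinase that stops translation on double-stranded RNA, lay at 5.38 to 7.71 RPKM (median 6.05) in DM-aKG Apc Min, 6.75 to 11.2 (median 8.04) in control Apc Min and 8.91 to 11.6 (median 10.1) in WT. The DM-aKG libraries were below all WT libraries and overlapped the control libraries. Eif2ak2 fell with DM-aKG by 0.42 against control (SE 0.11, limma adjusted p = 0.00738) and by 0.63 against WT (SE 0.11, limma adjusted p = 0.000346). Control Apc Min against WT was not called (log2 -0.21, SE 0.11, limma adjusted p = 0.108), whereas it was with either other scaling, with array weights, with the replicate block (adjusted p = 0.0355) or the replicate set as a factor (adjusted p = 0.0223), within replicates 1 to 4, and without control replicate 5 or 6. With the other scalings the call for DM-aKG against control was lost (limma adjusted p = 0.0625 and 0.0821), and over all alternatives the adjusted p ran from 0.000691 to 0.0821.

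Bst2 (tetherin), which holds budding virus at the cell surface, lay at 1.54 to 4.07 RPKM (median 3.70) in DM-aKG Apc Min, 1.48 to 6.61 (median 3.27) in control Apc Min and 6.58 to 11.8 (median 8.81) in WT. The highest control library was just above the lowest WT library, and Bst2 fell by 1.19 in control (SE 0.22, limma adjusted p = 0.000153) and by 1.25 in DM-aKG Apc Min (SE 0.23, limma adjusted p = 0.00046). DM-aKG and control differed by -0.06 (SE 0.23, limma adjusted p = 0.867). The GTPase genes Mx1 and Mx2 were low throughout, with medians of 0.268, 0.662 and 1.37 RPKM for Mx1 and 0.305, 0.232 and 0.544 RPKM for Mx2 in DM-aKG Apc Min, control Apc Min and WT. GENCODE lists Mx2 as a polymorphic pseudogene, since many laboratory strains carry defective Mx genes. Mx1 fell by 0.45 in control (limma adjusted p = 0.00727) and by 0.67 in DM-aKG Apc Min (limma adjusted p = 0.00103), with overlapping libraries in both. Without control replicate 4 or WT replicate 1, 3, 5, 6 or 7, Mx1 no longer passed the filter. Mx2 in the fit with no filter had log2 changes of -0.33 in control (limma adjusted p = 0.000706) and -0.26 in DM-aKG Apc Min (limma adjusted p = 0.0125) against WT.

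Parp9, Dtx3l and Parp14 are neighbours on chromosome 16. Parp9 and Dtx3l form a complex that ADP-ribosylates and ubiquitinates chromatin and viral proteins, and Parp14 is a mono-ADP-ribosyltransferase. Parp14 lay at 4.46 to 14.5 RPKM (median 5.93) in DM-aKG Apc Min, 2.86 to 12.4 (median 7.91) in control Apc Min and 18.9 to 30.3 (median 26.2) in WT. WT was apart from both groups, with log2 changes of -1.77 in control (SE 0.25, limma adjusted p = 7.4e-06) and -1.72 in DM-aKG Apc Min (SE 0.26, limma adjusted p = 7.71e-05). Between the Apc Min groups the difference was 0.06 (SE 0.26, limma adjusted p = 0.886). Parp9 had medians of 13.7, 16.1 and 29.5 RPKM and Dtx3l of 9.59, 10.8 and 23.6 RPKM in DM-aKG Apc Min, control Apc Min and WT. Both fell against WT in both Apc Min groups without overlap (log2 -0.92 and -1.09 in control, -1.01 and -1.16 in DM-aKG Apc Min). Their exons share 458 bases on opposite strands, so without a known strand setting some of their reads cannot be told apart.

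The remaining effectors fell against WT in both Apc Min groups where they were tested. Rtp4, a receptor-transport chaperone with antiviral activity, had medians of 1.27, 1.5 and 6.29 RPKM in DM-aKG Apc Min, control Apc Min and WT (log2 -1.47 in control and -1.61 in DM-aKG Apc Min, no overlap in either). Xaf1, which promotes cell death, had medians of 0.814, 0.805 and 2.74 RPKM in DM-aKG Apc Min, control Apc Min and WT, also without overlap (log2 -1.01 and -1.05). Trim30a, a mouse regulator of NF-kappaB signalling, had medians of 0.841, 0.668 and 2.92 RPKM in DM-aKG Apc Min, control Apc Min and WT. Its highest control library lay within the WT range, and its near-identical relative Trim30d may share reads. Ifi35, a partner of Nmi, had medians of 17.2, 12.1 and 30.3 RPKM in DM-aKG Apc Min, control Apc Min and WT, with libraries that overlapped WT in both groups (log2 -1.30 in control and -1.03 in DM-aKG Apc Min). It shares 16.8% of its exon bases with the antisense gene Gm11626. Ifi44 had medians of 0.192, 0.332 and 1.02 RPKM in DM-aKG Apc Min, control Apc Min and WT and was not tested with the filter. Without the filter the log2 changes were -0.62 in control (limma adjusted p = 0.000537) and -0.77 in DM-aKG Apc Min (limma adjusted p = 0.000414).

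**Figure D4:**
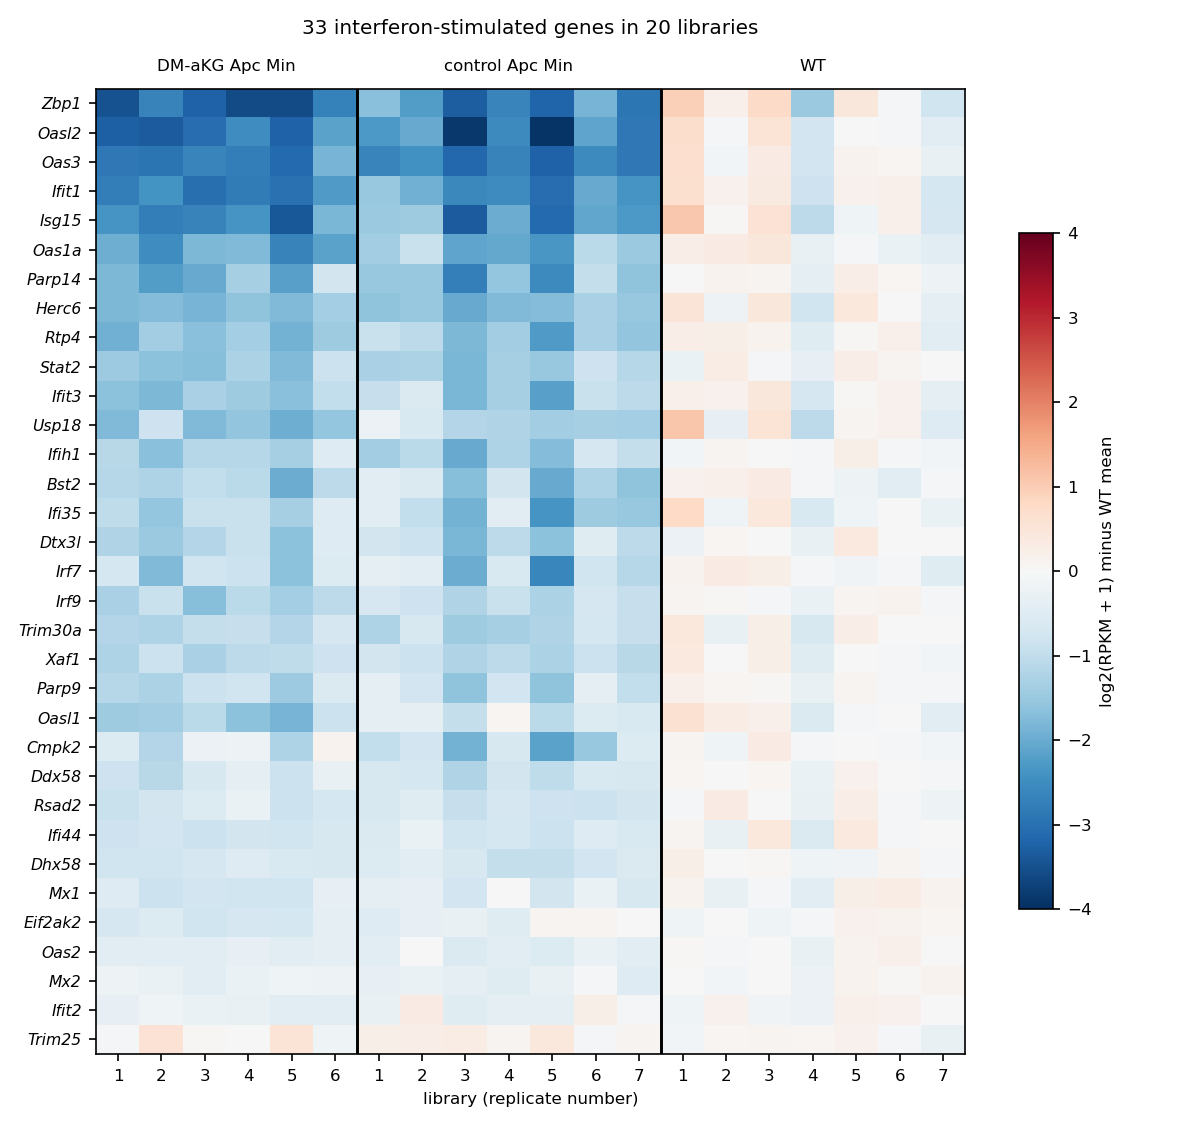
Log2(RPKM + 1) of the 33 genes in each of the 20 libraries, as the difference from the WT mean of that gene. The Apc Min columns are below the WT mean for most genes, and WT replicate 4 is the lowest WT column for 26 of them.

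Libraries within a group did not have the same module level. The mean log2(RPKM + 1) over the 33 genes was 1.65 to 2.26 (median 1.87) in DM-aKG Apc Min, 1.55 to 2.36 (median 2.10) in control Apc Min and 2.75 to 3.47 (median 3.24) in WT, with no overlap between WT and either Apc Min group. DM-aKG replicate 6 was the highest of its group for 21 of the 33 genes. Control replicates 3 and 5 were the lowest of theirs for 14 and 15 genes, and their summed T and NK cell markers, 3.25 and 2.77 RPKM, were the lowest of all libraries. WT replicate 4 was the lowest WT library for 26 genes, and its T and NK cell sum of 57.8 RPKM was also the lowest of the WT group. DM-aKG replicate 6 had a T and NK cell sum of 18.5 RPKM, below that of replicate 4 at 22.5 RPKM and replicate 3 at 19.8 RPKM. The part of these cell markers in the module level was not tested.

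**Figure D5:**
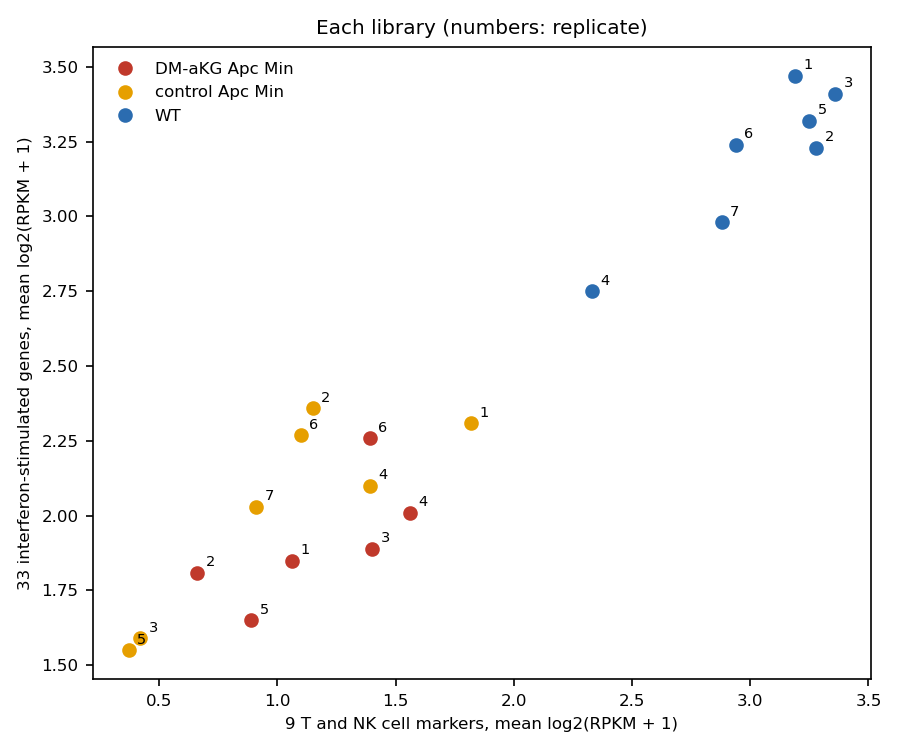
Mean log2(RPKM + 1) of the 33 interferon-stimulated genes against that of 9 T and NK cell markers, 1 point per library with its replicate number. The 7 WT libraries (2.75 to 3.47) lie above and to the right of all 13 Apc Min libraries (1.55 to 2.36), and the Apc Min groups overlap on both axes.

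Replicates 1 to 4 and 5 to 7 differed in Rn45s, the ribosomal RNA precursor, at 3836 to 6558 RPKM in the 12 libraries numbered 1 to 4 and 1078 to 3621 RPKM in the 8 numbered 5 to 7. The labels do not say what this reflects. Within replicates 1 to 4, of 26 tested members 23 fell in DM-aKG Apc Min against WT and 22 in control Apc Min against WT, where 12.2% and 11.7% of all tested genes fell. Within replicates 5 to 7, with 2 DM-aKG, 3 control and 3 WT libraries, 10 and 18 of 23 fell, where 2.2% and 8.46% of all tested genes fell. A limma interaction test asked whether the difference of DM-aKG against control depended on the replicate set. It used the Apc Min libraries only, so the differences from WT were not tested this way. None of the 30 genes was called, where 0.129% of all tested genes were. An unadjusted p under 0.05 was reached by 0 of 30, where 9.06% of all tested genes had such a p. The lowest was that of Eif2ak2 (limma adjusted p = 0.571).

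Other interferon-induced genes were compared with the 33. Of 41 tested genes on a second list of interferon-stimulated genes, 31 fell and 4 rose in control Apc Min against WT (median log2 -0.83), and 31 fell and 2 rose in DM-aKG Apc Min against WT (median -0.75). Of all tested genes 15.7% fell and 43.2% rose in the first comparison, and 17.3% fell and 21.9% rose in the second. Apol9b, an apolipoprotein L family gene, was among the furthest down: its medians were 0.620, 0.616 and 14.8 RPKM in DM-aKG Apc Min, control Apc Min and WT, and its log2 change was -3.42 in control (SE 0.25, limma adjusted p = 1.73e-09) and -3.25 in DM-aKG Apc Min (SE 0.26, limma adjusted p = 7.18e-08). Epsti1 had medians of 7.42 RPKM in DM-aKG Apc Min, 6.20 in control Apc Min and 18.4 in WT. With DM-aKG against control 7 of the 41 fell and none rose (6 fell and 1 rose with median-of-ratios scaling, and 6 and 6 with quantile normalization). Of all tested genes 27.6% fell and 5.91% rose there, and the median log2 change was 0.09 for the 41 genes and -0.14 for all genes. Among the 7, Ifit1bl1 had medians of 5.76 RPKM in DM-aKG and 11.9 in control Apc Min (log2 -1.0, SE 0.25, limma adjusted p = 0.00444), and Mlkl, the executioner of necroptosis, 1.75 and 3.87 RPKM (log2 -0.68, SE 0.16, limma adjusted p = 0.00244).

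The Ifitm genes, which block virus entry at membranes, were highest in control Apc Min. Ifitm2 lay at 71.2 to 157 RPKM in DM-aKG Apc Min, 210 to 346 in control Apc Min and 48.7 to 71.7 in WT. Its control libraries were above all others, with log2 changes of -1.48 for DM-aKG against control (SE 0.15, limma adjusted p = 3.57e-07) and 2.09 for control Apc Min against WT (SE 0.14, limma adjusted p = 7.28e-10). Ifitm1 had medians of 15.9, 65.1 and 7.84 RPKM and Ifitm3 of 55.7, 227 and 46.7 RPKM in DM-aKG Apc Min, control Apc Min and WT. Both fell with DM-aKG against control (log2 -1.64 and -1.78) and rose in control Apc Min against WT (log2 2.90 and 2.29). Isg20 was the only other gene of this list that rose in control Apc Min against WT, by 0.24 (SE 0.10, limma adjusted p = 0.0476). This call was lost with the other scalings, and with quantile normalization its sign changed.

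Genes that interferon gamma induces were also lower than in WT. Of 16 tested GTPases of the Gbp and Irg families, which attack the vacuoles of intracellular pathogens, 14 fell in control Apc Min against WT (median log2 -1.33) and 14 in DM-aKG Apc Min against WT (median -1.29). Igtp, for example, had medians of 2.30, 2.11 and 31.2 RPKM in DM-aKG Apc Min, control Apc Min and WT. None of the 16 was called with DM-aKG against control in limma, where 27.6% of all tested genes fell and 5.91% rose. All 14 genes of MHC class I presentation and the immunoproteasome fell in both comparisons with WT (median log2 -1.65 in control and -1.41 in DM-aKG Apc Min), Psmb8 to medians of 11.9 and 9.77 RPKM against 75.7 in WT. In DM-aKG against control 2 of these 14 rose (with median-of-ratios scaling B2m as well): H2-Q4 had medians of 13.8 RPKM in DM-aKG and 10.1 in control Apc Min (log2 0.43, SE 0.11, limma adjusted p = 0.00461), and H2-Q7 1.71 and 0.665 RPKM (log2 0.67, SE 0.17, limma adjusted p = 0.00426). The differences between these lists and the 33 genes were not tested.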

How the data were processed

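RNA from 20 mouse intestinal libraries was measured, 6 DM-aKG Apc Min, 7 control Apc Min and 7 WT. The authors deposited a gene table whose unit, RPKM, was inferred from its values, which sum to 277634 to 369409 per library. The submitters' processing notes name mm10, Partek, HISAT2 2.0.4 and CASAVA 1.8, without roles. Annotation and strandedness of the counts were not given in the sources used here. RPKM is relative to the library total, so a few abundant genes can shift the rest.

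Depth was estimated from steps between low values: 66.4 to 71.7% of 756 to 905 values per library came out whole to within 0.1 read (20% if evenly spread; values of up to 8 reads), too few for a count test.

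Log2(RPKM + 1) of genes reaching 1 RPKM in 6 libraries or more (12433 genes) was fitted over all libraries with limma 3.58.1 (trend, robust) in R 4.3.3, with Benjamini-Hochberg adjustment. The step was tested on simulated data. Marker sums were compared by 2-sided exact permutation tests (smallest p = 0.000583). The 33 members and the 6 pathway and 12 marker lists were chosen with earlier results of these data known, and a few genes are not reported here. Full values were given for the called members with the largest changes, up to 6 each way for DM-aKG over control and 4 each way otherwise, and for 12 fixed members. From each pathway list up to 4 genes with the smallest p were named. Other members and list genes were named after their values were seen. Whether equal replicate numbers pair libraries is not known. Deviations from group means of equal-numbered libraries correlated at -0.457 to 0.604. Libraries of unequal number were not compared in this way, so these correlations cannot decide it. Gene positions are from GENCODE M21 (mm10). Alternatives varied the pseudocount, filter, scaling, weights and libraries.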

Additional observations from a re-analysis of the deposited data

Results flagged for a closer look

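Among 99 groups of values (33 genes in 3 groups), 3 held 1 library far from the rest, where about 4.95 would be flagged by chance. Oas3 in DM-aKG replicate 6 was 1.83 RPKM, with the next highest DM-aKG library at 0.653 RPKM. Usp18 in DM-aKG replicate 2 was 1.72 RPKM, with the next at 0.635 RPKM. Bst2 in DM-aKG replicate 5 was 1.54 RPKM, below the next lowest library at 3.29 RPKM.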

How the results depend on the processing

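Of the 32 alternatives, 20 left out 1 library each. Without single libraries the members lower were 26 to 28 in control Apc Min and 26 to 28 in DM-aKG Apc Min against WT (medians -1.269 to -1.044 and -1.278 to -1.107), and in DM-aKG against control 0 to 1 rose and 2 to 4 fell (median -0.191 to -0.03). In these fits, of 12347 to 12410 genes tested, 1695 to 2024 fell in control and 1570 to 2265 in DM-aKG Apc Min against WT. With DM-aKG against control 571 to 880 of all genes rose and 2866 to 3690 fell. In DM-aKG against control the count of members that rose was 0 with no filter, with only the 2 groups, with the replicate set as a factor, and within replicates 1 to 4 or 5 to 7. The count of falls was 1 with quantile normalization, median-of-ratios scaling, replicates 1 to 4 or 5 to 7, and 8 with array weights (Ifit1, Ifit2, Irf9, Oas1a, Usp18 and Zbp1 added), where 34.4% of all genes fell. In DM-aKG Apc Min against WT the median was -1.483 with pseudocount 0.1, and 10 of 23 fell within replicates 5 to 7, where all genes gave 147 higher and 247 lower calls, in place of 2722 and 2151. With quantile normalization all genes gave 1750 higher and 1849 lower calls for DM-aKG against control and 3239 and 3348 for control Apc Min against WT. The replicate block gave 1 rise and 3 falls (Irf9 added) for DM-aKG against control and 28 falls in each comparison with WT. With this block all 12433 genes gave 758 higher and 3603 lower calls for DM-aKG against control. They gave 2084 lower calls in control Apc Min and 2335 in DM-aKG Apc Min against WT. Uncalled differences of DM-aKG against control changed sign: Oasl2 was 0.03 (quantile), 0.27 (replicates 5 to 7) and -0.31 to 0.01 without single libraries; Irf7 -0.18 (replicates 1 to 4) and -0.16 to 0.22; Stat2 0.06 (quantile) and 0.01 (median-of-ratios). Ifit3 was 0.04 within replicates 5 to 7. Bst2 was 0.12 (quantile), 0.07 (median-of-ratios), 0.10 (replicates 5 to 7) and -0.20 to 0.09 without single libraries. Trim25 was 0.10, 0.12, 0.02 and -0.13 to 0.02 under the same. Parp14 was -0.05 (array weights), -0.02 (replicates 1 to 4) and -0.14 to 0.19, and Oas3 -0.02 (array weights) and -0.06 to 0.19. In control Apc Min against WT Trim25 was -0.04 with median-of-ratios scaling. The causes were not tested. Genes under about 1 RPKM, such as Oas2, Mx2 and Ifi44, rest on few reads.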
